A study of Mus musculus with 6 samples.

Results

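The genes described here belong to 3 families of conjugating enzymes of phase II detoxification, the UDP-glucuronosyltransferases (Ugt), the sulfotransferases (Sult) and the glutathione transferases (Gst). They were chosen by symbol: every listed gene of the Ugt1a, Ugt2a, Ugt2b and Ugt3a groups, of Sult1 to Sult7, and of the Gst classes a, k, m, o, p, t and z. This gave 53 of the 25403 genes listed, and 50 of them had at least 10 counts summed over the 6 livers: 18 of 19 Ugt genes, 10 of 12 Sult genes and 22 of 22 Gst genes. Ugt1a8, Sult3a1 and Sult6b1 lay below that minimum. The Gst genes include Gstm2-ps1, annotated as a processed pseudogene, which the symbol rule kept.

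Poly(A) RNA was sequenced from frozen livers of 3 mice labelled wild-type C57BL6/J (WT) and 3 labelled Themis KO (Themis-KO), a label that stands for a whole-body deletion of Themis, known for its part in T cell development. Mice of both groups had been fed the MASH diet (fat for 40% of energy, fructose for 20%, and 2% cholesterol), which induces metabolic dysfunction-associated steatohepatitis, for 3 months from an age of 10 to 12 weeks. No liver of mice on another diet was analysed here, and the deletion so labelled is not restricted to hepatocytes. The comparison asks how the loss of Themis altered hepatic transcripts in mice with this disease.

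Phase II enzymes join a polar group to a drug, hormone, bile acid, bilirubin or reactive lipid so that it can be carried out of the cell. Ugt enzymes, in the membrane of the endoplasmic reticulum, transfer glucuronic acid from UDP-glucuronic acid, Sult enzymes in the cytosol transfer sulfate from PAPS, and Gst enzymes attach glutathione to electrophiles. Hepatocytes hold most of this capacity, the Ugt and Gst genes are often induced through xenobiotic receptors or NRF2, and several Sult and Ugt genes differ between male and female mice.

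The RNA level of Themis, the deleted gene, did not separate the labels. Counts per gene cannot show whether part of the gene is absent, so the deletion itself was not tested. Themis had 8.07, 25.6 and 12.0 CPM (TMM-normalized counts scaled to library size) in the livers labelled WT and 8.63, 7.74 and 9.97 in those labelled Themis-KO. The groups overlapped, and the log2 fold change of -0.79 (SE 0.38) had an adjusted p of 0.199 by edgeR's quasi-likelihood test. The paragraphs that follow compare the livers as they are labelled, and every direction drawn rests on those labels. Libraries held 20679642 to 25649767 counts on genes. In WT replicates 1 and 2, Gm28438 took 96.6% and 96.8% of the summed counts of Gm28438 and the mitochondrial gene mt-Nd3. In the other 4 livers it took 2.20% to 3.26%. This split is called the mitochondrial type here. It is inferred from these counts alone, and no label names it. The high share of Gm28438 is found in part of 1 group. A fit with the type as a covariate therefore sets WT replicate 3 alone against the 3 Themis-KO livers, and assumes that this liver varies like the others. Ddx3y, on the Y chromosome, had 36.3 to 45.4 CPM in the 6 livers and Xist at most 0.378 CPM. Whether samples of 1 group came from separate litters is not given, so p-values measure the spread between these livers.

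Of the 53 genes, 46 passed the filter on low counts and were tested. In Themis-KO livers 10 of the 46 fell and 0 rose at an adjusted p under 0.05 by edgeR's quasi-likelihood test, adjusted over all 14496 genes tested (at an unadjusted p under 0.05, 20 were lower and 4 higher, and DESeq2 called 16 lower and 1, Gstm3, higher). This was 21.7% of the tested members lower, against 4.14% of all genes tested that fell and 4.97% that rose. The fall was at least 2-fold for 4 genes, Sult2a8, Sult5a1, Gstt3 and Sult1b1, which is 8.70% of the members against 1.12% of all genes. The median log2 fold change was -0.33 over the 46 and 0.0095 over all genes tested, and 32 of the 46 had a negative sign. Every Themis-KO liver lay below every WT liver for 19 of the 46, against 16.9% of all genes, and above for 6, against 17.7%. Of the 10 genes that fell, 8 share no 100-base stretch with another gene. The count of 10 changed with the livers included: leaving out replicate 1 or replicate 2 of either group gave 1, and leaving out replicate 3 of the Themis-KO group gave 20. The single gene was Sult2a8 each time. Over these fits with 5 livers, log2 fold changes ranged from -1.95 to -1.62 for Sult5a1, from -1.06 to -0.85 for Ugt2b1 and from -0.53 to -0.44 for Gstm7. With WT replicate 3 as the only WT liver informing the contrast, in the fit with the mitochondrial type, the count was 1.

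**Figure D1:**
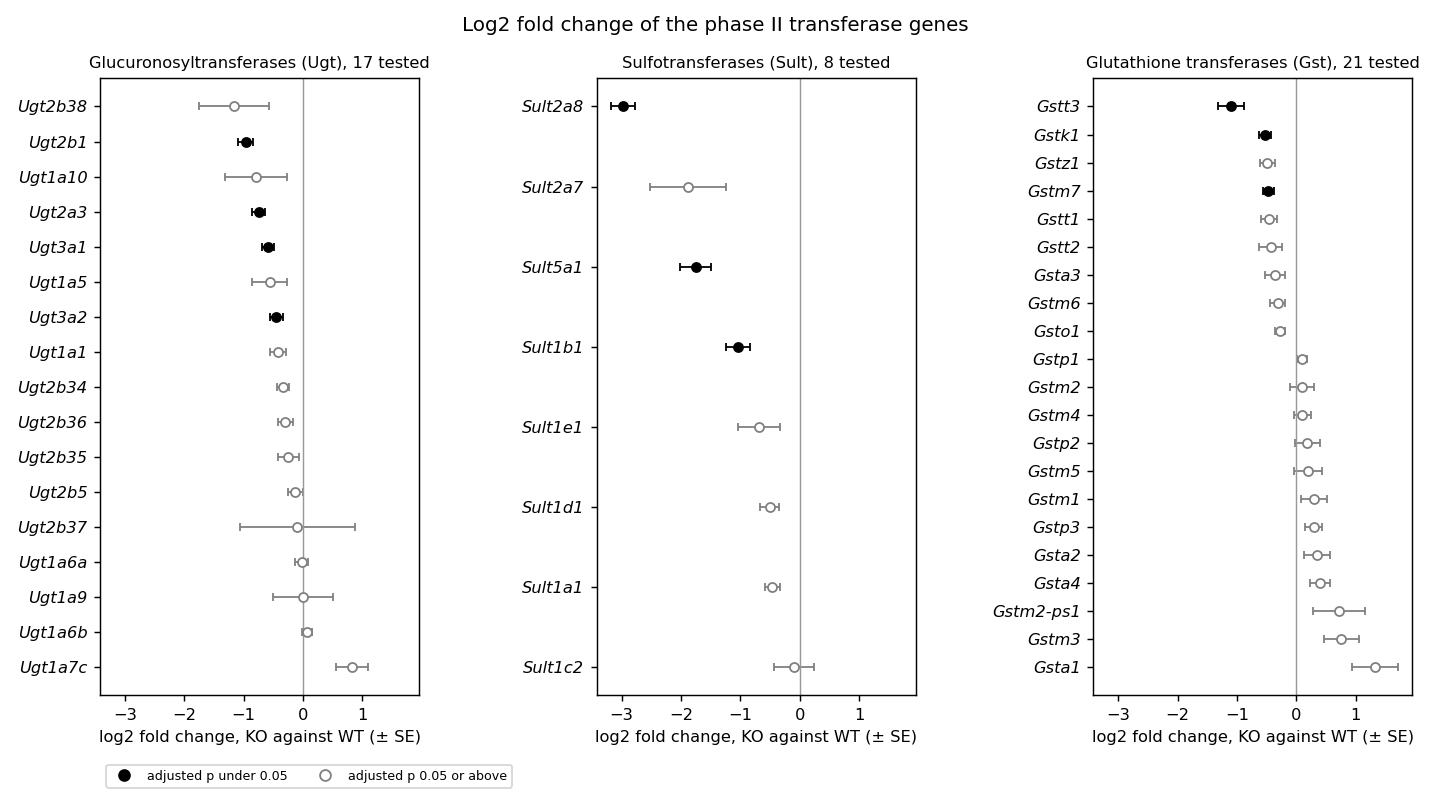
Log2 fold change, Themis-KO against WT, of the 46 tested genes in 3 panels by family, with bars for the SE; filled points have an adjusted p under 0.05. The filled points, 4 Ugt, 3 Sult and 3 Gst genes, all lie left of 0, and Sult2a8 lies farthest left at -2.98.

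The families differed in how their tested genes were placed. All 8 Sult genes and 15 of 17 Ugt genes had a negative log2 fold change, with medians of -0.86 and -0.34, whereas 12 of 21 Gst genes had a positive one, with a median of 0.095. Summed over the family, Ugt transcripts had 3099, 3749 and 3004 CPM in WT livers and 2520, 2416 and 2759 CPM in Themis-KO livers. The Sult sum was 617, 571 and 494 CPM against 225, 281 and 296 CPM. Both sums were lower in each Themis-KO liver than in any WT liver, at a ratio of means of 0.781 for Ugt and 0.477 for Sult. Without Sult2a8 the Sult ratio was 0.701. The Gst sum, 3999, 5673 and 4816 CPM against 4580, 4456 and 5810 CPM, overlapped between the groups. The 3 families together took 0.720% to 0.936% of all counts in WT livers and 0.766% to 0.908% in Themis-KO livers.

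**Figure D2:**
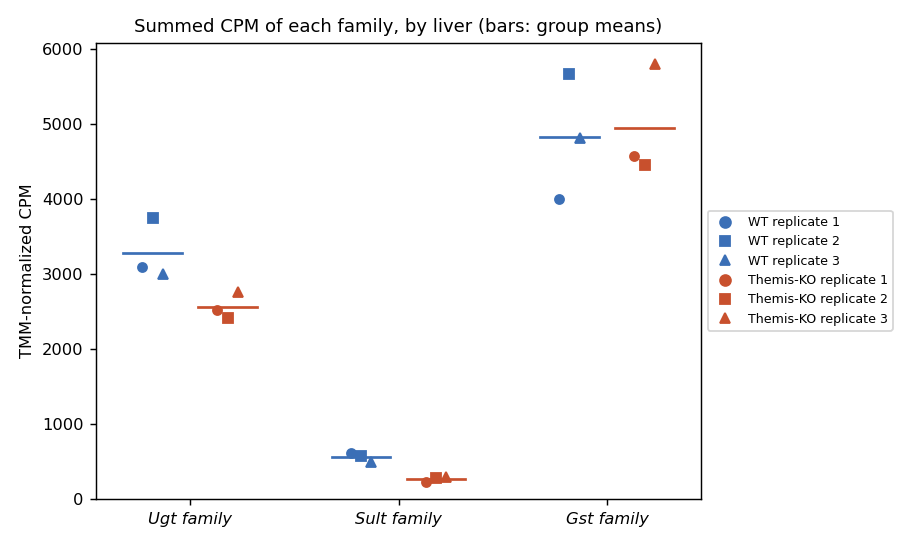
Summed TMM-normalized CPM of each family in each liver, with points for the 6 livers and bars for the group means. The Ugt and Sult points of Themis-KO livers lie below all WT points, and the Gst points overlap, with WT replicate 1 the lowest at 3999 CPM.

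The starts of the genes on which the results turn are shown first, because they place the members that fell and the searched elements on the genome (RefSeq, GRCm38.p6, 250 bases before to 50 after an annotated start, 5' to 3'). Sult2a8, the gene with the largest fall, is on the minus strand at chr7:14446538-14446837. Ugt2b1 and Ugt2a3, with the largest falls among the Ugt genes past the threshold, lie on the minus strand at chr5:86926454-86926753 and chr5:87337146-87337445. Gstm7, which fell, and Gsta1, the tested member with the largest positive log2 fold change, are at chr3:107931565-107931864 on the minus strand and chr9:78230419-78230718 on the plus strand. Capitals mark the antioxidant response element core in Gstm7 (its second listed start) and the STAT5 element in Gsta1. The first listed start of Gstm7, not shown, holds neither element. Sult2a8 is shown at its first listed start, and its second holds neither element.
Sult2a8: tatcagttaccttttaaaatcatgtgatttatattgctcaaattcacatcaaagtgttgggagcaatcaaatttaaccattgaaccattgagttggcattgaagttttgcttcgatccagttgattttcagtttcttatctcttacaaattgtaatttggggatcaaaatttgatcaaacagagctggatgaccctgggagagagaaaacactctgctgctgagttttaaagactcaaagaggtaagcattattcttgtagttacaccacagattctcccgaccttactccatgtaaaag
Ugt2b1: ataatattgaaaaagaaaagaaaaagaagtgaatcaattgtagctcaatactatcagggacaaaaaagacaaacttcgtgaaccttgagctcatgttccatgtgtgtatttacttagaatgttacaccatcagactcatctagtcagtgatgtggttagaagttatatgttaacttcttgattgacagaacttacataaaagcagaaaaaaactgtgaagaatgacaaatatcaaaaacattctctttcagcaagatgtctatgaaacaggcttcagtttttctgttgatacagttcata
Ugt2a3: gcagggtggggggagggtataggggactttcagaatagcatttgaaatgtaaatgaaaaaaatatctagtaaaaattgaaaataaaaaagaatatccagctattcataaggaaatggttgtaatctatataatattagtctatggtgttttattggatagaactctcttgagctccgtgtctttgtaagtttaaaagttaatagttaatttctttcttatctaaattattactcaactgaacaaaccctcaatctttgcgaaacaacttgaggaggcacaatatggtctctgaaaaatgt
Gstm7: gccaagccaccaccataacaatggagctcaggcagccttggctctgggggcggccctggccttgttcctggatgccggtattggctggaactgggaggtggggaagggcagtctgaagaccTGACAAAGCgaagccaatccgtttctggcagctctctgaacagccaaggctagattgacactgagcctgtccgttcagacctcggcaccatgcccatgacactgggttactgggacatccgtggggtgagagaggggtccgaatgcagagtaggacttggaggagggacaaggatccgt
Gsta1: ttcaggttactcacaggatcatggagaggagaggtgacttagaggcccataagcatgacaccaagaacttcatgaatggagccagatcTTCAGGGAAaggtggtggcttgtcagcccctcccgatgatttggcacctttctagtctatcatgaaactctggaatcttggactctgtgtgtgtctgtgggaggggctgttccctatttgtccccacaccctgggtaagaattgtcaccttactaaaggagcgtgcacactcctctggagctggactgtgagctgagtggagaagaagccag

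The antioxidant response element core, TGACNNNGC, which NRF2 can bind, was searched on both strands of the start windows, as was the STAT5 element TTCNNNGAA, bound by a factor downstream of growth hormone. Of the 53 genes, 46 had a RefSeq entry, with 57 windows. The first motif was in the windows of 3 of these 46 genes, Gsta3, Gstm5 and Gstm7, and in 12.4% of 32851 windows of all genes. The STAT5 element was in those of 4 of the 46, Gsta1, Gstm6, Sult3a1 and Ugt1a6a, and in 8.30% of all windows. Members are counted by gene and the background by window, so these shares are not in the same unit. No gene of the families held both. Of the 10 genes that fell, Gstm7 alone held either motif, and Ugt3a2 had no entry. A match of letters shows no binding, and a window without a match says only that these letters are not in it.

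Among the glucuronosyltransferases, 4 of 17 tested genes fell, and the falls were in the Ugt2 and Ugt3 groups. Ugt2b1, a steroid and xenobiotic glucuronosyltransferase, had 404, 344 and 304 CPM in WT livers and 174, 165 and 200 CPM in Themis-KO livers. The groups lay well apart, with a log2 fold change of -0.96 (SE 0.13, edgeR adjusted p = 0.0131), 1.95-fold lower by group means. Ugt2a3, which glucuronidates bile acids, had 195, 214 and 173 CPM against 107, 115 and 125 CPM. No Themis-KO liver reached the lowest WT liver, with a log2 fold change of -0.75 (SE 0.11, edgeR adjusted p = 0.0152). Both sit in the gene cluster on chromosome 5 that also holds the other Ugt2b genes, Sult1b1, Sult1d1 and Sult1e1 (86889767 to 87591594, GRCm38).

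Ugt3a1 and Ugt3a2, neighbours on chromosome 15 (9276888 to 9370955), encode enzymes that use other UDP-sugars than glucuronic acid. Ugt3a1 had 56.97, 66.4 and 53.8 CPM in WT livers and 38.2, 38.3 and 40.7 CPM in Themis-KO livers, a log2 fold change of -0.59 (SE 0.099, edgeR adjusted p = 0.0223). Ugt3a2 had 230, 264 and 209 CPM against 174, 161 and 179 CPM, a log2 fold change of -0.45 (SE 0.11, edgeR adjusted p = 0.0426). In each of the pair the 3 Themis-KO livers were close together and below the WT livers. Ugt3a2 missed the threshold under scaling by total counts.

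The most abundant Ugt genes did not pass edgeR's threshold. Per kb of the principal transcript, Ugt2b5 stood highest with 272 CPM per kb over the 6 livers, before Ugt2b36 with 213 and Ugt1a1 with 188. Ugt2b5 had 453, 624 and 509 CPM in WT livers and 483, 461 and 501 CPM in Themis-KO livers. These overlapped, with a log2 fold change of -0.14 (SE 0.13), and 24.7% of its 100-base stretches also occur in Ugt2b37 or Ugt2b38. Ugt1a1, the enzyme that conjugates bilirubin, had 457, 566 and 411 CPM against 336, 341 and 394 CPM. The groups did not overlap, but the log2 fold change of -0.42 (SE 0.14) had an edgeR adjusted p of 0.0847. Ugt2b34 was placed likewise, at -0.34 (SE 0.11, edgeR adjusted p = 0.0768). DESeq2 called both lower (adjusted p = 0.0307 for Ugt1a1 and 0.0273 for Ugt2b34).

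The Ugt1a genes are made from 1 locus on chromosome 1, where each first exon is joined to shared last exons, so between 39.5% and 100% of their 100-base stretches are shared and the counts of single members depend on how reads were divided. Of 7 tested, 0 passed edgeR's threshold, while 2 had an unadjusted p under 0.05 and DESeq2 called 1, Ugt1a1. Ugt1a6a and Ugt1a6b, active on planar phenols, differed little, with 142, 171 and 143 CPM against 142, 143 and 163 CPM for Ugt1a6a. Ugt1a7c was higher in each Themis-KO liver (1.28, 1.73 and 2.60 CPM against 3.15, 3.61 and 3.26 CPM), with a log2 fold change of 0.82 (SE 0.27, edgeR adjusted p = 0.0866). Some genes varied from liver to liver within a group. Ugt2b37 had 3.76, 1.87 and 16.1 CPM in WT livers and 13.8, 6.11 and 0.614 CPM in Themis-KO livers, and Ugt1a9 had 23.2, 99.2 and 36.5 CPM against 38.0, 43.2 and 77.3 CPM. Ugt1a2 and Ugt1a8 were not tested.

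Among the sulfotransferases, Sult2a8, a bile acid sulfotransferase of mouse liver, fell the most of all members. It had 246, 251 and 161 CPM in WT livers and 26.2, 24.6 and 32.9 CPM in Themis-KO livers, so the lowest WT liver was far above the highest Themis-KO liver. The group means were 219 ± 50.9 and 27.9 ± 4.38 CPM (SD, n = 3), 7.86-fold lower in Themis-KO. This is a log2 fold change of -2.98 (SE 0.20), with an edgeR adjusted p of 0.00521. It lay between -3.16 and -2.87 when each liver was left out in turn and passed the threshold each time. Between WT replicate 3 alone and the Themis-KO livers, in the fit with the mitochondrial type, it was -2.53. Sult2a8 shares no 100-base stretch with another gene and lies at 14410686 to 14446769 on chromosome 7. Its neighbour Sult2a7 was scarce, with 0.505, 1.01 and 0.513 CPM against 0.0425, 0.129 and 0.378 CPM, and a log2 fold change of -1.88 (SE 0.64, edgeR adjusted p = 0.0961).

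**Figure D3:**
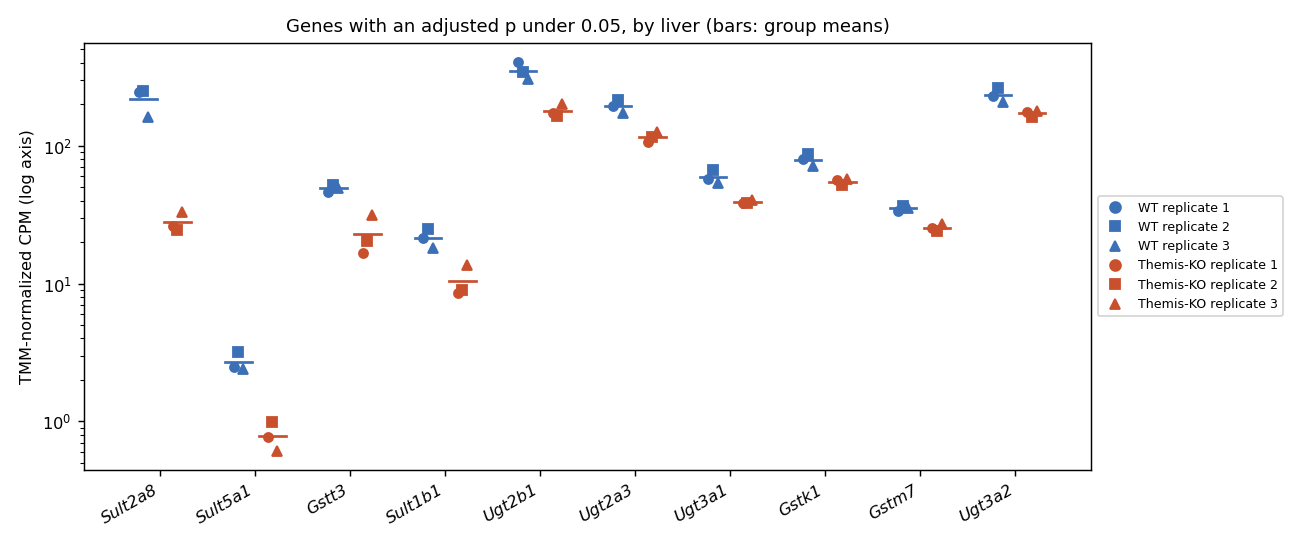
TMM-normalized CPM on a log axis of the 10 genes that fell, with points for the 6 livers and bars for the group means. In each gene the 3 Themis-KO points lie below the 3 WT points, and the gap is widest for Sult2a8, 161 to 251 CPM in WT against 24.6 to 32.9 CPM in Themis-KO.

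Sult5a1, a sulfotransferase whose substrates are little known, was expressed at a low level: 2.48, 3.17 and 2.41 CPM in WT livers against 0.765, 0.989 and 0.614 CPM in Themis-KO livers. The groups did not overlap, at a log2 fold change of -1.75 (SE 0.26, edgeR adjusted p = 0.0159). Sult1b1, which sulfates thyroid hormones and phenols, had 21.3, 24.8 and 18.1 CPM against 8.54, 9.03 and 13.6 CPM. Themis-KO replicate 3 lay nearest to the WT livers, and the gene changed by -1.04 on the log2 scale (SE 0.20, edgeR adjusted p = 0.0302). Sult1a1, the phenol sulfotransferase and the most abundant Sult gene per kb (120 CPM per kb over the 6 livers), had 189, 170 and 177 CPM against 108, 133 and 149 CPM. The groups lay apart, with a log2 fold change of -0.46 (SE 0.12) and an edgeR adjusted p of 0.0569. Sult1d1, which acts on catecholamines, had 147, 107 and 128 CPM against 73.6, 104 and 90.8 CPM, a log2 fold change of -0.50 (SE 0.16, edgeR adjusted p = 0.0799). DESeq2 called both Sult1a1 and Sult1d1 lower (adjusted p = 0.0111 and 0.0243). Sult1e1, the estrogen sulfotransferase, and Sult1c2 overlapped between the groups, at 2.17 to 7.43 CPM and 3.05 to 6.57 CPM over the 6 livers. Of the 4 Sult genes not tested, Sult4a1 had 2, 1 and 2 counts in WT livers and 7, 7 and 11 in Themis-KO livers, and Sult2b1 had 1, 2 and 2 against 5, 1 and 4.

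Among the glutathione transferases, 3 of 21 tested genes fell, 1 each of the theta, kappa and mu classes. Gstt3, a theta class enzyme, had 46.1, 52.0 and 49.4 CPM in WT livers and 16.5, 20.4 and 31.7 CPM in Themis-KO livers. WT livers were close together, Themis-KO replicate 3 was the highest of its group, giving a log2 fold change of -1.11 (SE 0.22, edgeR adjusted p = 0.0304). Of its 100-base stretches, 23.9% also occur in Gm20441, which had 3 counts in 1 liver and 0 in the other 5. Gstk1, the mitochondrial and peroxisomal kappa enzyme, had 80.1, 86.5 and 71.2 CPM against 56.0, 51.7 and 57.2 CPM, a log2 fold change of -0.53 (SE 0.096, edgeR adjusted p = 0.0263). Gstm7, of the mu class, had 33.7, 36.8 and 35.4 CPM against 25.4, 24.0 and 27.1 CPM. The spread within each group was small beside the gap, at a log2 fold change of -0.47 (SE 0.086, edgeR adjusted p = 0.0264).

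Gstt1, Gstz1 and Gsto1, of the theta, zeta and omega classes, were also lower in each Themis-KO liver without passing edgeR's threshold. Of all genes tested, 16.9% were lower in each Themis-KO liver. DESeq2 called Gstz1 and Gstt1 (adjusted p = 0.00561 and 0.0144) but not Gsto1. Gstt2, also of the theta class, overlapped between the groups, and Gsto2 of the omega class was not tested. Gstz1, which isomerizes maleylacetoacetate in tyrosine breakdown, had 542, 622 and 506 CPM against 371, 361 and 456 CPM, with a log2 fold change of -0.49 (SE 0.13, edgeR adjusted p = 0.0514). Gstt1 had -0.47 (SE 0.13, edgeR adjusted p = 0.0624) and Gsto1, the omega enzyme that reduces dehydroascorbate, -0.28 (SE 0.085, edgeR adjusted p = 0.0763).

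The most abundant Gst genes, of the mu, pi and alpha classes, did not pass the threshold of edgeR or of DESeq2. Gstm1 had the highest level of all members, 1607 CPM per kb over the 6 livers, followed by Gstp1 with 656 and Gsta3 with 572. The latter pair had close means in WT livers, 644 CPM per kb for Gsta3 and 636 for Gstp1, and their order varied between these livers. In Themis-KO livers the means were 501 for Gsta3 and 677 for Gstp1. Gstm1 had 1284, 2390 and 1909 CPM in WT livers and 2153, 2034 and 2659 CPM in Themis-KO livers, a log2 fold change of 0.29 (SE 0.22, edgeR adjusted p = 0.392). Gstp1, the pi class enzyme, had 514, 525 and 528 CPM against 542, 531 and 595 CPM, a log2 fold change of 0.091 (SE 0.086). Between 52.8% and 63.5% of the 100-base stretches of Gstp1 and Gstp2 are shared with each other or with Gstp-ps. Gsta3, an alpha class enzyme that conjugates aflatoxin epoxide, had 874, 1044 and 898 CPM against 639, 626 and 924 CPM. Themis-KO replicate 3 lay among the WT livers, which left a log2 fold change of -0.36 (SE 0.17, edgeR adjusted p = 0.179).

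The tested members that were higher in each Themis-KO liver were Gsta1, Gsta4, Gstm3, Gstp1, Gstp3 and Ugt1a7c, and 0 of these 6 passed the threshold with edgeR, although 4 had an unadjusted p under 0.05 and DESeq2 called 1, Gstm3. Gsta1, an inducible alpha class enzyme, had 7.84, 29.7 and 23.6 CPM in WT livers and 47.9, 51.8 and 53.0 CPM in Themis-KO livers. WT livers varied far more than Themis-KO livers, at a log2 fold change of 1.32 (SE 0.39, edgeR adjusted p = 0.0705). Of its 100-base stretches, 81.8% also occur in Gsta2, Gm10639 or Gm3776. The summed level of those 4 genes was 42.3, 119 and 90.7 CPM against 170, 181 and 198 CPM. Gstm3 had 105, 223 and 213 CPM against 253, 262 and 400 CPM, a log2 fold change of 0.76 (SE 0.30, edgeR adjusted p = 0.134). Gsta4, which conjugates the lipid peroxidation product 4-hydroxynonenal, had 27.2, 45.2 and 37.8 CPM against 47.6, 48.0 and 49.5 CPM. WT replicate 1 was the lowest of the 6 livers for Gsta1, Gsta4, Gstm1 and Gstm3.

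**Figure D4:**
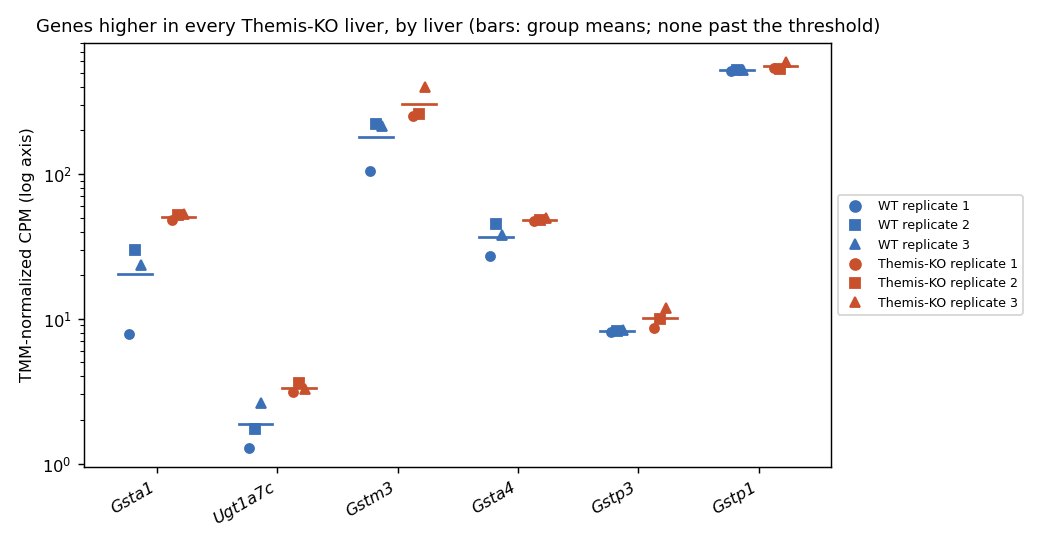
TMM-normalized CPM on a log axis of the 6 tested genes in which each Themis-KO liver lay above each WT liver, with points for livers and bars for group means. WT replicate 1 is the lowest point for Gsta1, Gstm3 and Gsta4, and 0 of the 6 pass the threshold.

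Summing the counts of each subfamily before the test removes the division of reads among its members. Of the 14 subfamily sums tested, 6 fell, against 4.16% of all entries tested in that table, and 0 rose (at an unadjusted p under 0.05, 10 were lower and 0 higher, and DESeq2 called 9 lower and 0 higher). Sult2 had 246, 253 and 161 CPM in WT livers and 26.5, 24.8 and 33.4 CPM in Themis-KO livers, a log2 fold change of -2.96 (SE 0.20, edgeR adjusted p = 0.00502), nearly all of it from Sult2a8. The Sult1 sum fell by 0.51 on the log2 scale (edgeR adjusted p = 0.0485), and Ugt3a by 0.48 (edgeR adjusted p = 0.0384). The other 3, Sult5, Ugt2a and Gstk, hold 1 member each. Ugt1a had 802, 1051 and 799 CPM against 692, 701 and 850 CPM, which overlapped, with a log2 fold change of -0.24 (edgeR adjusted p = 0.282). Ugt2b was lower in each Themis-KO liver, at -0.36 (edgeR adjusted p = 0.0776). Gstm was at 0.30 (edgeR adjusted p = 0.377), Gsta at -0.25 (edgeR adjusted p = 0.314), Gstp at 0.095 (edgeR adjusted p = 0.480) and Gstt at -0.55 (edgeR adjusted p = 0.0575). Leaving out replicate 1 or replicate 2 of either group left 1 sum, Sult2, and leaving out replicate 3 of the Themis-KO group gave 11.

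**Figure D5:**
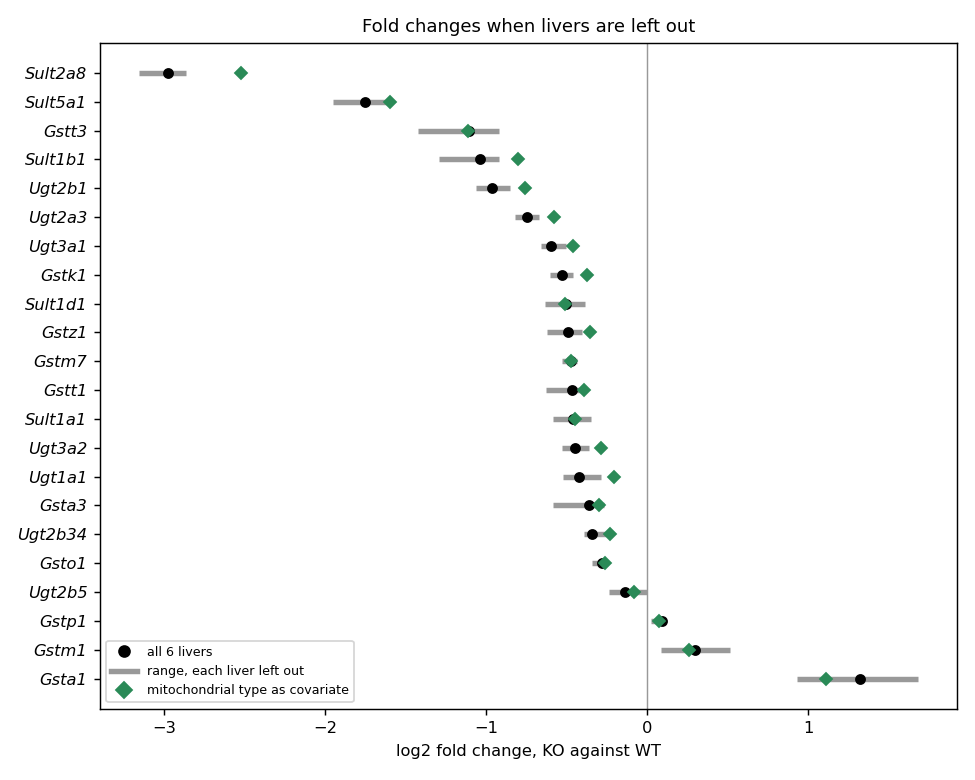
Log2 fold change of the 22 named members with all 6 livers (black), the range when each liver is left out in turn (gray) and the value with the mitochondrial type as a covariate, which compares WT replicate 3 alone with the Themis-KO livers (green). Each of the 10 genes that fell stays below 0 in all of these fits, and Sult2a8 ranges from -3.16 to -2.53.

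Lists of other pathway genes covered cosubstrate supply, other transferases and related genes, other conjugating enzymes, xenobiotic receptors, NRF2 targets and exporters. Of the 86 genes tested over all these lists, 9 rose and 8 fell, with a median log2 fold change of -0.09. Over all genes tested, 4.97% rose, 4.14% fell and 49.0% had a negative sign. The cosubstrate lists had medians of 0.21 for UDP-glucuronic acid, -0.19 for PAPS and 0.26 for glutathione. Among 10 genes of PAPS (sulfate donor) supply, sulfate transport and desulfation, 2 fell. Papss2, the main hepatic PAPS synthase, had 193, 198 and 189 CPM in WT livers and 80.6, 82.7 and 134 CPM in Themis-KO livers. WT livers lay close together and Themis-KO replicate 3 nearest to them, with a log2 fold change of -0.97 (SE 0.19, edgeR adjusted p = 0.0305). Suox, which oxidizes sulfite to sulfate, fell by 0.52 on the log2 scale (edgeR adjusted p = 0.0420). Among 7 genes of UDP-glucuronic acid supply and release, Gusb, the lysosomal enzyme that removes glucuronic acid, rose by 0.37 (edgeR adjusted p = 0.0398). Ugdh, which makes the donor, had 175, 274 and 258 CPM against 427, 359 and 279 CPM, with a log2 fold change of 0.59 (SE 0.21), which missed edgeR's threshold and passed that of DESeq2 (adjusted p = 0.0363).

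Of 14 genes of glutathione synthesis and turnover, 2 rose and 1 fell. Gss, glutathione synthetase, had 85.4, 117 and 102 CPM in WT livers and 174, 157 and 141 CPM in Themis-KO livers, a log2 fold change of 0.63 (SE 0.13, edgeR adjusted p = 0.0345). Slc3a2, a subunit of the cystine importer, rose by 0.66, and Oplah, which recovers glutamate from oxoproline, fell by 0.33 on the log2 scale. Gclc, the catalytic subunit of the rate-limiting enzyme, had 233, 382 and 385 CPM against 1180, 928 and 391 CPM. Themis-KO replicate 3 was at the level of the WT livers, and the log2 fold change of 1.32 (SE 0.38) had an adjusted p of 0.0657 with edgeR and 0.0306 with DESeq2. A list outside the symbol rule held microsomal glutathione transferases and other genes related to glutathione transferases. Of its 7 tested genes, 0 passed edgeR's threshold, while 4 had an unadjusted p under 0.05. DESeq2 called 3 higher, Mgst3 and the related genes Clic1 and Clic4. Of 13 NRF2 targets outside the families, 4 rose, Cbr3 (log2 fold change 2.17), Srxn1 (1.07), Abcc4 (1.03) and Pgd (0.63), against 4.97% of all genes tested. All 13 had a positive sign, whereas 49.0% of all genes tested had a negative one. Themis-KO replicate 3 lay apart from its group in several of them: Hmox1 had 27.1 CPM there, 166 and 90.1 CPM in the other Themis-KO livers and 21.6 to 33.5 CPM in WT livers. Osgin1 had 34.4 CPM there, against 295 and 162 CPM in the others and 60.1 to 84.4 CPM in WT livers. Txnrd1 and Slc7a11 in this liver, like Hmox1, were within the WT range, whereas Osgin1 lay below it.

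Of 14 enzymes of other conjugations, 2 of glycine conjugation fell, Acsm1 by 0.61 and Glyat by 0.45 on the log2 scale. All 14 had a negative sign, with a median of -0.47. Over all genes tested, 4.14% fell, 4.97% rose and 49.0% had a negative sign. Of 17 xenobiotic receptors and hepatocyte factors, 2 fell, Ppara by 0.52 and its partner Rxra by 0.42 on the log2 scale. Nr1i3, the constitutive androstane receptor, had 247, 352 and 288 CPM against 139, 139 and 240 CPM (adjusted p = 0.0720 with edgeR and 0.00758 with DESeq2). Of 8 exporters of conjugates, Abcc1, Abcc4 and Abcc5 of the basolateral membrane rose by 1.10, 1.03 and 0.58, and Abcb11, the canalicular bile salt pump, fell by 0.45 on the log2 scale. Instead of 17, 1 of these pathway genes passed the threshold without replicate 1 of the WT group and 0 without its replicate 2. Leaving out replicate 1 or replicate 2 of the Themis-KO group also gave 0. Without replicate 3 of the WT group there were 10, and without that of the Themis-KO group 45.

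Markers of hepatocyte zones and of some other cell types moved with the labels. In bulk liver, fewer cells of a type and less RNA per cell cannot be told apart. For comparison with the counts below, 4.97% of all genes tested rose and 4.14% fell. Of 11 general hepatocyte markers 0 passed edgeR's threshold (2 were lower at an unadjusted p under 0.05 and 2 by DESeq2), with a summed level of 67410 to 77080 CPM in WT livers and 60120 to 61530 CPM in Themis-KO livers. Of 10 pericentral markers 6 fell (7583 to 11760 CPM against 4342 to 5887 CPM), and of 10 periportal markers 3 fell (7447 to 8869 CPM against 5373 to 6749 CPM). Hepatic stellate cell (HSC) markers rose in 6 of 11 (446 to 508 CPM against 677 to 730 CPM), macrophage markers in 4 of 12 (357 to 623 CPM against 602 to 799 CPM) and cholangiocyte markers in 1 of 8 (168 to 207 CPM against 399 to 630 CPM). Of 9 endothelial markers 1 rose, of 7 B cell markers 0 passed the threshold (0 also at an unadjusted p under 0.05 and by DESeq2), and of 7 T cell markers 1, Cd4, fell, at a summed level of 5.18 to 7.02 CPM against 4.69 to 9.35 CPM. Of 19 genes known to be higher in male than in female mouse liver 14 fell, with a median log2 fold change of -1.37, and of 12 female-biased genes 1 rose and 1 fell. The part of these markers in the change of the phase II genes was not tested.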

How the data were processed

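Poly(A) RNA of 3 WT and 3 Themis-KO livers was sequenced as paired-end libraries. Per the labels, reads were trimmed with cutadapt 2.3, mapped to GRCm38 with STAR 2.7.8a and assigned with RSEM 1.3.3. The authors deposited estimated counts per gene and liver, in whole numbers and not normalized. RSEM splits reads that fit several genes, which ties the values of near-identical genes together. The release of the annotation is not given in the sources used here.

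Counts were analysed with edgeR 4.0.16 in R 4.3.3 (filterByExpr, TMM, glmQLFit, glmQLFTest, no covariates), which removed 10907 genes and tested 14496, with Benjamini-Hochberg adjustment over them and a threshold of 0.05. No prior count entered the TMM-normalized CPM. Levels of different genes were compared only per kb of the principal transcript in GENCODE vM21 (GRCm38). SEs were derived from the fold change and its F statistic. Genes were also summed by subfamily before the same fit. The fits were tested on simulated counts.

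The members and lists were chosen with earlier results of these data known. Named are the members past the threshold, the most abundant tested member of each subfamily, 3 others with the lowest p, and from each other list the genes past the threshold, at most 4. Other members, Ugdh, Gclc, Hmox1, Osgin1, Txnrd1, Slc7a11, Nr1i3, Mgst3, Clic1, Clic4, Cd4 and Gm28438 were named after their values were seen. Alternatives were RLE, total counts alone, no filter, a minimum of 10 counts per gene and liver, DESeq2 1.42.0, a replicate block, the mitochondrial type (livers with over 50% Gm28438) as a covariate and each liver left out. Depth limits genes with few counts, and 7 members were not tested.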

Additional observations from a re-analysis of the deposited data

How the results depend on the processing

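The count of members that fell, 10 with all livers, was 10 with RLE size factors, 9 with total counts alone, 15 without a filter, 10 with at least 10 counts in every liver and 16 with DESeq2. It was 1 with the mitochondrial type as a covariate, a fit in which WT replicate 3 alone stands for the WT group, and ranged from 1 to 20 when each liver was left out. The count that rose, 0 with all livers, was 2 without a filter (Gsta1 and Gstm3), 1 with DESeq2 (Gstm3), and ranged from 0 to 1 when each liver was left out, with Ugt1a7c called without WT replicate 3. Subfamily sums past the threshold numbered 6 with all livers, 1 with the mitochondrial type and 1 to 11 with a liver left out. Other pathway genes past the threshold numbered 17 with all livers, 39 without a filter, 38 with DESeq2, 0 with the mitochondrial type and 0 to 45 with a liver left out. Scaling by total counts alone moved the median log2 fold change of all genes from 0.0095 to 0.15. It reversed the sign of Ugt2b5, to 0.0026, and 6 of the 39 named genes lost their call. All 39 kept their sign with RLE size factors, DESeq2, the block and the mitochondrial type. The cause of these shifts was not tested.

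The replicate numbers of the labels did not pair the livers: same-numbered livers correlated at 0.000277, -0.241 and -0.157 in their deviations from the group means. With the replicate block, 1 member fell (Sult2a8), 1 subfamily sum (Sult2) and 1 other pathway gene passed the threshold.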
